A study of Mus musculus with 24 samples.

Results

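Transcript levels of 10 genes of the circadian clock were read in cerebellum (CB) and hippocampus (HC) of mice homozygous for the 16Gso translocation (16GsoT/T) and of wild type (WT) mice. The genes were taken by name out of 25793 gene symbols counted, and all 10 were present: the activators *Arntl* (also called Bmal1), *Clock* and *Npas2*, the repressors *Per1*, *Per2*, *Per3*, *Cry1* and *Cry2*, the nuclear receptor *Nr1d1* and the output factor *Dbp*. RNA-seq was performed on 24 libraries in 8 groups, with 3 male mice in each combination of genotype, region and age, at postnatal day 14 (P14) and day 35 (P35). The 16Gso mutation is a reciprocal translocation between chromosomes 5 and 8 that arose in a mutagenesis screen, so each 16GsoT/T animal carries one and the same rearrangement. Both genotypes were kept on a B6C3 background (the labels give C57BL/6), and the homozygotes were bred from homozygous parents, so they were no littermates of the WT animals. No treatment is named, the mice were housed in a light and dark cycle, and the hour of dissection is not given in the sources used here.

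The mammalian clock is a feedback loop that runs in most cells, brain cells among them. The proteins of *Arntl* and *Clock*, or of its paralog *Npas2*, act as a pair that switches on genes with an E-box in their regulatory sequence, including the *Per* and *Cry* genes, *Nr1d1* and *Dbp*. PER and CRY proteins then inhibit the pair, and *Nr1d1* represses *Arntl* and *Npas2*. *Arntl* and *Npas2* transcripts thus peak broadly when those of *Nr1d1*, *Dbp* and the *Per* genes are low. *Per1* is also known as a gene that responds within a short time to neuronal activity and to glucocorticoids. Because of this known opposition of phase, samples taken at different hours of the day are usually recognised by *Arntl* and *Npas2* moving one way and *Dbp*, *Nr1d1* and the *Per* genes the other way.

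Between 2563968 and 40564789 reads per library were counted on genes, fewest in P35 HC (at most 4127478) and most in P14 CB (at least 22893603). Levels are given in CPM, the count of a gene relative to its library total after scaling of all 24 libraries by the TMM method, and differences between groups as log2 fold changes of a model fitted over all genes, with the standard error (SE). The dissected regions carried their own markers, since 6 cerebellar genes summed to between 4028 and 4654 CPM in CB and between 111.5 and 259.3 CPM in HC, and 6 hippocampal genes to between 591.0 and 882.8 CPM in HC and between 175.2 and 287.5 CPM in CB. Each region and age was sequenced in lanes of its own, so that region and age cannot be told apart from sequencing. In P14 HC the genotypes were sequenced in different lanes. In P35 HC all 16GsoT/T libraries and the WT library N10 had a single index, and the WT libraries W481 and W483 had dual indices. In P35 CB the share of reads counted on genes was 37.6 to 37.7% in WT and 42.3 to 42.4% in 16GsoT/T. *Wbscr17* (now *Galnt17*), a gene at the chromosome 5 breakpoint, was lower in 16GsoT/T with log2 fold changes of -1.05 in P14 CB, -0.31 in P35 CB and -0.46 in P14 HC (edgeR adjusted p = 0.000563, 0.00835 and 0.0163), and had -0.62 in P35 HC (edgeR adjusted p = 0.12).

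Per kilobase of annotated exon, *Nr1d1* had the highest level of the 10 genes in 6 of the 8 groups, from 63.0 ± 6.88 CPM per kb in WT P35 CB to 91.8 ± 2.44 CPM per kb in WT P14 HC (SD, n = 3). The P14 CB groups were the exception. There *Arntl* led with 22.5 ± 0.598 CPM per kb in WT (SD, n = 3), followed by *Clock* with 18.6 ± 1.11 and *Nr1d1* with 18.3 ± 2.0, and the last 2 levels differed by less than their spread. *Npas2* stood last in the 4 CB groups and in WT P35 HC, and had 1.38 ± 0.123 CPM per kb in WT P14 CB and 0.656 ± 0.111 in WT P35 CB (SD, n = 3), against 3.84 to 4.70 CPM per kb in the WT HC groups. *Per1* had the highest level per kilobase of the 3 *Per* genes in all 8 groups. The order of *Per2* and *Per3* changed between groups, with 5.41 ± 0.408 and 4.56 ± 0.133 CPM per kb in WT P14 CB and 5.21 ± 2.16 and 6.81 ± 0.394 in WT P35 CB (SD, n = 3).

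**Figure D1:**
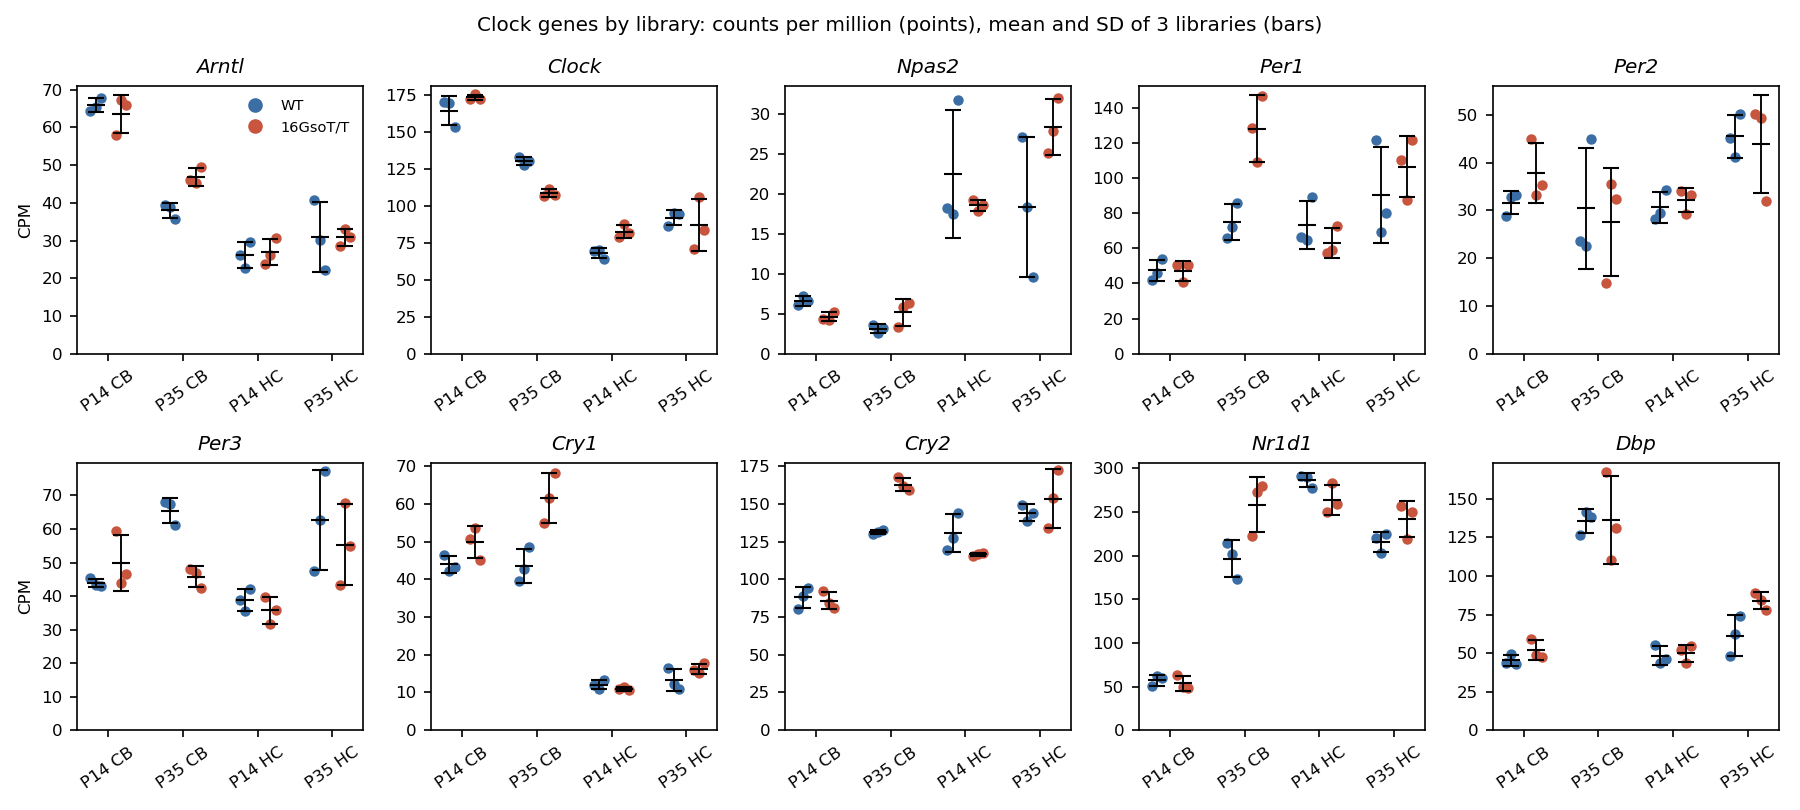
Levels of the 10 clock genes in CPM (y axis, from 0) in each of 24 libraries, by age and region (x axis) and genotype (colour), with the mean and SD of the 3 libraries of a group as bars. In P35 CB, the 3 16GsoT/T libraries sit above all WT libraries for *Per1* (109.0 to 146.9 against 65.9 to 86.0 CPM) and below them for *Per3* (42.3 to 48.1 against 61.1 to 67.9 CPM).

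The first comparison was between regions in WT mice. At P14, *Nr1d1* was 5.07-fold higher in HC than in CB (log2 fold change 2.34, SE 0.087), with 278.0, 290.3 and 291.9 CPM in HC and 50.1, 60.0 and 61.7 CPM in CB. *Npas2* was 3.44-fold higher in HC (log2 fold change 1.78, SE 0.21), and its usual partner *Arntl* was lower in HC by a log2 fold change of -1.31 (SE 0.092). *Clock* (-1.26) and *Cry1* (-1.84) were lower in HC as well, and *Cry2* (0.59) and *Per1* (0.65) were higher. Thus 7 of 10 genes passed an edgeR adjusted p of 0.05, 4 higher and 3 lower in HC, where 77.2% of all genes tested did. *Per2*, *Per3* and *Dbp* did not pass, with log2 fold changes of -0.02, -0.16 and 0.10, and *Per3* passed without the HC library N6 (-0.23, edgeR adjusted p = 0.0302).

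At P35 the same comparison gave 6 of 10 genes called, against 56.0% of all genes tested. *Npas2* was again higher in HC (log2 fold change 2.62, SE 0.34), and *Cry1* (-1.65, SE 0.16) and *Clock* (-0.45, SE 0.080) were again lower. *Dbp*, which encodes a PAR bZIP activator that binds D-box elements, was lower in HC at this age, with 47.8, 62.5 and 73.8 CPM against 126.6, 138.3 and 141.6 CPM in CB (log2 fold change -1.09, SE 0.13, edgeR adjusted p = 9.59e-06). *Arntl* and *Nr1d1* had log2 fold changes of -0.23 and 0.19 at P35 and did not pass (edgeR adjusted p = 0.258 and 0.0809), but *Arntl* passed without the HC library N10 (-0.49, edgeR adjusted p = 0.00704). *Per1* (0.34, edgeR adjusted p = 0.108) passed without W481 (0.49, edgeR adjusted p = 0.0317). *Per2* passed (0.67, edgeR adjusted p = 0.0207), although its groups overlapped, and it did not pass without W483, M27 or M28 (0.47 to 1.03 with one library left out). The call of *Cry2* (0.19, edgeR adjusted p = 0.0412) was lost in 5 of 6 such fits, all but that without W481, and in DESeq2 (adjusted p = 0.093). Since these bulk values mix cell types, fewer cells of a type and less RNA per cell cannot be told apart. The hour of dissection is not given for either region, and its part in these differences was not tested.

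Between the ages, levels are set side by side with no test. In WT CB, *Nr1d1* was at 57.3 ± 6.25 CPM at P14 and 197 ± 21.5 CPM at P35, and *Dbp* at 45.3 ± 3.43 and 136 ± 7.86 CPM (SD, n = 3). *Arntl* stood at 65.9 ± 1.75 CPM at P14 and 38.0 ± 1.97 CPM at P35 in WT CB (SD, n = 3). In WT HC, *Nr1d1* had 287 ± 7.62 CPM at P14 and 216 ± 11.2 CPM at P35, and *Dbp* had 48.1 ± 6.16 and 61.4 ± 13.02 CPM (SD, n = 3). The levels of the 2 ages thus stood in opposite orders in the 2 regions for *Nr1d1*, and in WT CB the phase-opposed genes *Arntl* and *Dbp* differed in opposite directions. The part of the hour of dissection, which is not given for either age, was not tested.

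The clock genes differed between the genotypes in P35 CB. In this region and age 7 of 10 genes passed an edgeR adjusted p of 0.05, 5 of them up and 2 down in the mutants, where 35.3% of all genes tested passed. The groups of the same 7 genes did not overlap, and 47.6% of all genes tested had groups that did not overlap. *Per1* was the 1 gene left under the further limit of a 1.5 fold change. The median log2 fold change of the 10 genes was 0.29, and that of all genes tested -0.004. The median of their sizes without sign was 0.34, against 0.24 over all genes tested.

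*Per1*, an early responder among the repressors, had the largest change of the 7. It was at 65.9, 72.4 and 86.0 CPM in WT and at 109.0, 128.6 and 146.9 CPM in 16GsoT/T, a fold change of 1.70 (log2 fold change 0.77, SE 0.12, edgeR adjusted p = 0.000319). *Per3*, a paralog with a weaker role in the loop, was at 61.1, 67.3 and 67.9 CPM in WT and at 42.3, 47.0 and 48.1 CPM in 16GsoT/T (log2 fold change -0.53, SE 0.081, edgeR adjusted p = 0.000343). The 2 paralogs, which belong to the same side of the cycle, therefore moved in opposite directions. *Per2*, the third of them, was at 22.7, 23.6 and 45.0 CPM in WT and at 14.7, 32.5 and 35.5 CPM in 16GsoT/T, and its spread was larger than the difference (log2 fold change -0.11, SE 0.29, edgeR adjusted p = 0.809).

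*Cry1* and *Cry2*, whose proteins inhibit the activators directly, both rose. *Cry1* was at 39.5, 42.7 and 48.5 CPM in WT and at 55.0, 61.6 and 68.1 CPM in 16GsoT/T (log2 fold change 0.49, SE 0.10, edgeR adjusted p = 0.0028). For *Cry2* the values were 130.0, 131.4 and 133.1 CPM in WT and 159.1, 162.0 and 167.8 CPM in 16GsoT/T (log2 fold change 0.30, SE 0.057, edgeR adjusted p = 0.00178). Both pairs of groups were apart, with the narrowest spread in *Cry2*.

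Among the activators, *Arntl* rose, being at 35.8, 38.8 and 39.5 CPM in WT and at 45.2, 46.0 and 49.6 CPM in 16GsoT/T (log2 fold change 0.29, SE 0.084, edgeR adjusted p = 0.0188). This call was lost when C21 or M29 was left out, in DESeq2 (adjusted p = 0.0652) and in one fit of all 12 libraries of the age (edgeR adjusted p = 0.144). Its partner *Clock* fell, from 127.5, 130.2 and 133.1 CPM to 106.4, 107.4 and 111.5 CPM (log2 fold change -0.28, SE 0.060, edgeR adjusted p = 0.0037), a call lost in one fit of all 12 libraries of the age (edgeR adjusted p = 0.0603). *Npas2* was weakly expressed in CB, at 2.59, 3.19 and 3.65 CPM in WT and at 3.29, 5.82 and 6.41 CPM in 16GsoT/T (log2 fold change 0.73, SE 0.29, edgeR adjusted p = 0.0684). Without the 16GsoT/T library C19 its log2 fold change was 0.97 and passed (edgeR adjusted p = 0.0124).

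*Nr1d1*, the repressor of *Arntl*, was at 173.0, 202.1 and 214.9 CPM in WT and at 222.9, 272.7 and 280.4 CPM in 16GsoT/T (log2 fold change 0.38, SE 0.095, edgeR adjusted p = 0.00815). *Arntl* and *Nr1d1*, which oppose each other in the daily cycle, were thus both higher in 16GsoT/T. *Per1*, opposed to *Arntl* as well, was also higher (log2 fold change 0.77). *Per3* was lower (log2 fold change -0.53), so *Arntl* and *Per3* stood in the order of opposed phases. *Npas2*, from the side of *Arntl*, had a positive value as *Arntl* did and did not pass (log2 fold change 0.73, edgeR adjusted p = 0.0684). *Per2* and *Dbp* did not pass either. *Dbp*, a clock output known for a wide daily swing, was at 126.6, 138.3 and 141.6 CPM in WT and at 110.5, 131.2 and 167.3 CPM in 16GsoT/T, and its log2 fold change was -0.01 (SE 0.12, edgeR adjusted p = 0.952). The annotated exons of *Nr1d1* share 263 bases with *Thra* on the other strand and those of *Dbp* 491 bases with *Sphk2*, and the strand setting of the counting is not given in the sources used here.

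**Figure D2:**
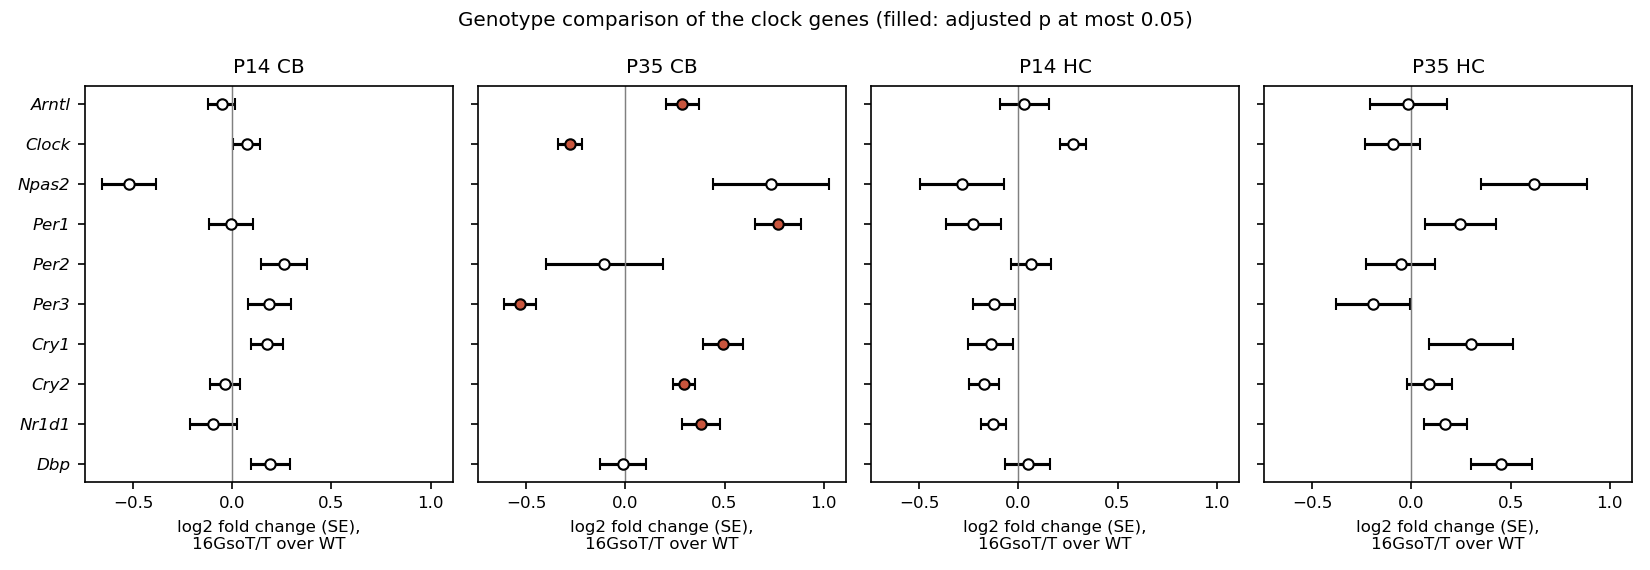
Log2 fold change of 16GsoT/T over WT (x axis) with its SE for the 10 clock genes (y axis) in each region and age, with filled points for an edgeR adjusted p of at most 0.05. Filled points appear in P35 CB alone, where *Per1* (0.77) and *Per3* (-0.53) lie farthest from 0 among them.

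The sequences before the transcription starts of *Per1*, *Per3*, *Cry1* and *Nr1d1* are shown. They were picked from the 7 genes called in P35 CB, and each window shown holds a match to the letters searched. They are the 250 bases before the start, 5′ to 3′, from the promoter table of RefSeq, with matches to the searched letters in capitals. For *Per1*, the first of its 2 starts in the table is shown. In the build of the counts, NCBIM37, with the GENCODE vM1 annotation, the genes lie at chr11:68908719-68923462 (*Per1*), chr4:150377761-150418774 (*Per3*), chr10:84594447-84647799 (*Cry1*) and chr11:98629246-98636647 (*Nr1d1*).
*Per1* (GRCm38.p6, chr11:69098699-69098948, plus strand): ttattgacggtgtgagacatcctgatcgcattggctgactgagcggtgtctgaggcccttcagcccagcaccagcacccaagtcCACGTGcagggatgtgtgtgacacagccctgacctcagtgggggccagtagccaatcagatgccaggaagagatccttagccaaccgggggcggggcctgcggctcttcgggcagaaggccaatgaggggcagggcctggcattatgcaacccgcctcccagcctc
*Per3* (GRCm38.p6, chr4:151044666-151044915, minus strand): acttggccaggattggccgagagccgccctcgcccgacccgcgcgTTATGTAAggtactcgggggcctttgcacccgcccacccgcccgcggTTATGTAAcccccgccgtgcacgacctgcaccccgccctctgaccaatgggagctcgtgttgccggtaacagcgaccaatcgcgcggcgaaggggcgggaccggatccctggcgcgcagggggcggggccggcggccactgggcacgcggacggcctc
*Cry1* (GRCm38.p6, chr10:85185055-85185304, minus strand): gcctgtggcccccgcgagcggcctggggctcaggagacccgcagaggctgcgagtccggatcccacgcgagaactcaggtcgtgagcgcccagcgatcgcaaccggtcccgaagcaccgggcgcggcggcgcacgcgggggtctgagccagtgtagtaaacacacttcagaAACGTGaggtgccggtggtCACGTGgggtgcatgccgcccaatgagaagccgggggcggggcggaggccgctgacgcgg
*Nr1d1* (GRCm38.p6, chr11:98775378-98775627, minus strand): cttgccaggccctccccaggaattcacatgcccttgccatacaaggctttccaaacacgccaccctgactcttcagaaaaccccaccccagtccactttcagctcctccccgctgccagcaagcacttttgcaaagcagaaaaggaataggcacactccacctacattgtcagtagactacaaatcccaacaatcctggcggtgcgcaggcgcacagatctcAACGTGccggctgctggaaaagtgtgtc
The letters searched on both strands were the E-box CACGTG, its variant CACGTT, the D-boxes TTATGTAA and TTACGTAA, the Nr1d1 and Ror element in the spellings ANTAGGTCA, ANTGGGTCA, TNTAGGTCA and TNTGGGTCA, and the cAMP response element TGACGTCA. *Per1* held one E-box from 166 bases before the start, and *Cry1* one from 60 bases before it, beside a variant from 79 bases before it. *Per3* held no E-box and had 2 D-boxes, from 205 and 158 bases before the start. *Nr1d1* held one E-box variant from 28 bases before the start. Over all genes of the table, 6.86% had an E-box in a window of this length, 4.50% the variant, 1.10% a D-box, 3.06% the Nr1d1 and Ror element and 1.77% the cAMP response element. No 2 matches overlapped. Windows of 9 of the 10 genes were in the table, *Per2* being the other, and 2 of the 9 held an E-box, 3 the variant, 1 a D-box and none either of the other elements. Of the called genes not shown, *Cry2* held the variant, and *Arntl* and *Clock* held no match. The window of the second *Per1* start held none either. A match is a description of these letters and does not show that a factor binds there.

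Of 21 other genes of the clock or its outputs, 12 passed in P35 CB, 8 of them up and 4 down in the mutants, where 35.3% of all genes tested passed, with a median log2 fold change of -0.01. The largest changes were those of *Arntl2*, a weakly expressed paralog of *Arntl* (-1.34, SE 0.35, edgeR adjusted p = 0.0104), and *Rorb*, a nuclear receptor that binds the same element as *Nr1d1* (0.85, SE 0.27, edgeR adjusted p = 0.0258), with means of 2.87 and 1.998 CPM in WT. *Nfil3*, which represses through the D-box and opposes *Dbp*, was at 17.1 ± 3.98 CPM in WT and at 29.1 ± 3.91 CPM in 16GsoT/T (SD, n = 3; log2 fold change 0.77, edgeR adjusted p = 0.00282). *Gm129* (now *Ciart*), a repressor of the loop, was at 15.2 ± 0.668 and 10.2 ± 1.48 CPM (SD, n = 3; log2 fold change -0.60, edgeR adjusted p = 0.00735). *Nr1d2*, the paralog of *Nr1d1* and singled out after its values were seen, moved against *Nr1d1*, from 306 ± 6.39 CPM in WT down to 232 ± 5.69 CPM in 16GsoT/T (SD, n = 3; log2 fold change -0.41, edgeR adjusted p = 0.000193).

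Genes known to respond to the same stimuli as *Per1* were read beside it in P35 CB, where 35.3% of all genes tested passed. Of 18 immediate early genes 15 were tested, and 8 passed, all of them higher in 16GsoT/T, led by *Nr4a3* (log2 fold change 3.17), *Fosl2* (1.60) and *Nr4a2* (1.51). The 18 genes summed to 320.1, 483.9 and 511.6 CPM in WT and to 574.1, 789.0 and 851.0 CPM in 16GsoT/T, and in both genotypes the libraries stood in the same order as for *Per1*. Of 16 glucocorticoid-responsive genes, 6 passed, all of them higher, among them *Cdkn1a* (0.96), *Mt2* (0.72) and *Sgk1* (0.59), a share near that of all genes, and 3 of the other genes had negative values. Their sum was 824.2, 822.7 and 842.7 CPM in the WT libraries M27, M28 and M29 and 880.7, 1281 and 1194 CPM in the 16GsoT/T libraries C19, C20 and C21. The libraries did not stand in the order of *Per1* here, since C20 had the highest sum and the lowest *Per1* of its group. All 4 endothelial markers were lower in 16GsoT/T and passed, with sums of 88.4 to 89.8 CPM in WT and from 51.4 to 57.8 CPM in 16GsoT/T. The 4 choroid plexus markers varied from 13.7 to 2059 CPM among WT libraries and from 121.6 to 356.2 CPM in 16GsoT/T. The part of these lists in the changes of the clock genes was not tested. The share of reads on genes went with genotype in P35 CB (37.6 to 37.7% in WT, 42.3 to 42.4% in 16GsoT/T), so it cannot be told apart from genotype.

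**Figure D3:**
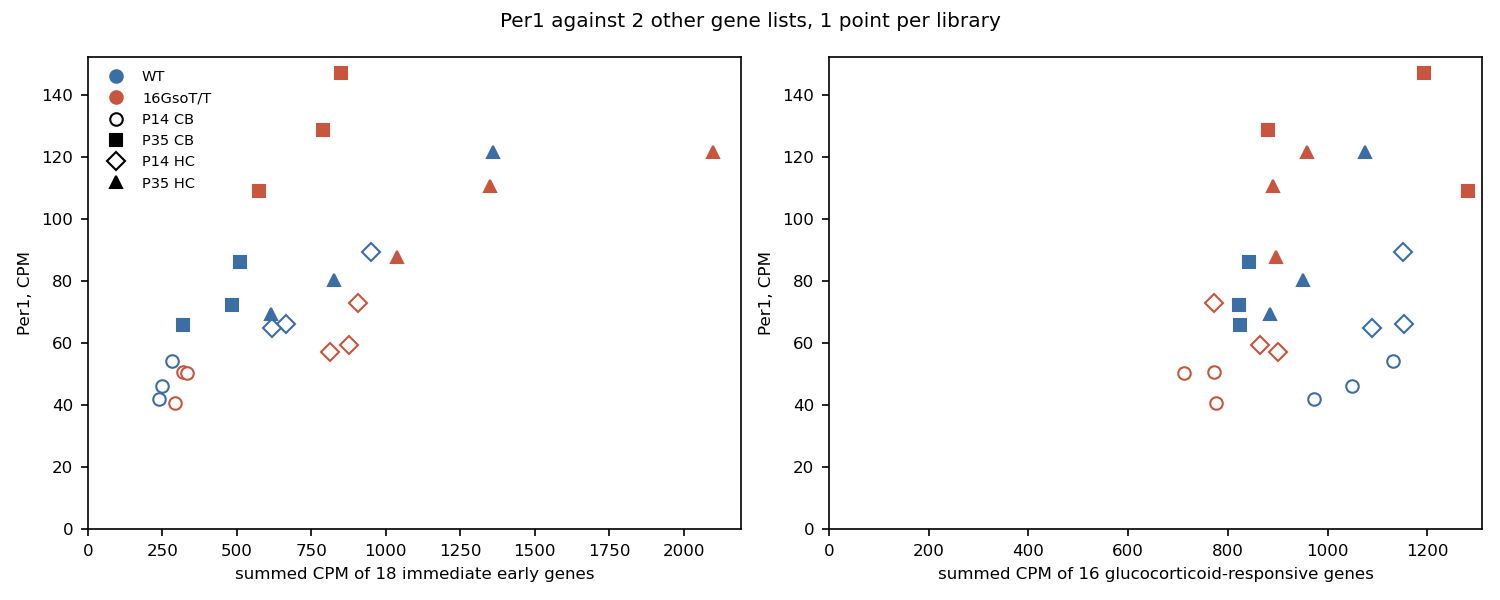
*Per1* level in CPM (y axis) against the summed CPM of 18 immediate early genes (left) and of 16 glucocorticoid-responsive genes (right), with one point per library, colour for genotype and symbol for region and age. In P35 CB the 16GsoT/T libraries lie above the WT libraries on both axes of both panels, and in P14 CB the glucocorticoid-responsive sum is lower in 16GsoT/T (711.7 to 776.6 CPM) than in WT (972.0 to 1130 CPM) while *Per1* overlaps. The immediate early sum in P14 CB is higher in 16GsoT/T (292.5 to 331.6 CPM) than in WT (239.9 to 280.5 CPM).

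In P14 CB no clock gene passed (0 of 10 in edgeR, 2 with an unadjusted p under 0.05, and 0 in DESeq2), where 0.506% of all genes tested passed. *Npas2* came nearest. It was at 6.06, 6.56 and 7.23 CPM in WT and at 4.17, 4.41 and 5.24 CPM in 16GsoT/T, groups that did not overlap (log2 fold change -0.52, SE 0.14, edgeR adjusted p = 0.201). The groups of *Clock* did not overlap either (152.9 to 170.1 CPM in WT, 171.7 to 175.2 in 16GsoT/T), so 2 of 10 genes had separate groups, where 13.7% of all genes tested did. *Per1* had a log2 fold change of -0.01 (SE 0.11) in P14 CB. All 16 glucocorticoid-responsive genes had negative values in the same comparison, and 9 of them passed. This list was chosen with earlier results of these data known, and the paper had reported its genes *Fkbp5* and *Hif3a* as lower in P14 CB and HC. Of 18 immediate early genes 16 were tested, 14 with positive and 2 with negative values, and 2 passed, both higher in 16GsoT/T. The 18 genes summed to 239.9 to 280.5 CPM in WT and to 292.5 to 331.6 CPM in 16GsoT/T, groups that did not overlap. The remaining members had log2 fold changes between -0.10 (*Nr1d1*) and 0.26 (*Per2*).

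In P14 HC, again none passed (0 of 10 in edgeR, 2 with an unadjusted p under 0.05, and 0 in DESeq2), where 0.814% of all genes tested passed. *Clock* was at 64.0, 69.2 and 70.3 CPM in WT and at 78.6, 81.4 and 87.4 CPM in 16GsoT/T (log2 fold change 0.27, SE 0.065, edgeR adjusted p = 0.0917), which passed in one fit of all 12 libraries of the age (edgeR adjusted p = 0.0471). *Clock* and *Cry2* had groups that did not overlap, which makes 2 of 10 genes against 23.6% of all genes tested. *Arntl* and *Dbp* had log2 fold changes of 0.03 and 0.05, each smaller than its SE (0.12 and 0.11). *Npas2* was at 17.5, 18.2 and 31.7 CPM in WT and at 17.9, 18.6 and 19.3 CPM in 16GsoT/T, the highest value being that of the WT library N6, which also had the highest *Per1* of its group (89.3 CPM against 64.9 and 66.2) and the highest immediate early sum (950.4 CPM against 616.6 and 664.7). Without N6 the log2 fold change of *Npas2* went from -0.28 to 0.05. *Per1* had -0.23 (SE 0.14, edgeR adjusted p = 0.426), beside negative values of all 16 glucocorticoid-responsive genes, of which 3 passed. That list was chosen with earlier results of these data known. Of the 18 immediate early genes, 15 had positive and 3 negative values, and none passed. Lane and genotype cannot be told apart in this comparison.

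In P35 HC none passed either (0 of 10 in edgeR, 2 with an unadjusted p under 0.05, and 0 in DESeq2), where 0.135% of all genes tested passed. The 2 were *Dbp*, with 47.8, 62.5 and 73.8 CPM in WT and with 78.2, 84.4 and 89.0 CPM in 16GsoT/T (log2 fold change 0.45, SE 0.15, edgeR adjusted p = 0.395), and *Npas2*, with 9.57, 18.4 and 27.2 CPM in WT and with 25.1, 27.9 and 32.1 CPM in 16GsoT/T (0.62, SE 0.27, edgeR adjusted p = 0.526). *Dbp* and *Npas2* oppose each other in the cycle, and both had positive values here. *Dbp* alone had groups that did not overlap (1 of 10, against 12.7% of all genes tested). *Per1* had 0.25 (SE 0.18, edgeR adjusted p = 0.773). Of 18 immediate early genes, 16 had positive and 2 negative values (median log2 fold change 0.89), and none passed. The 18 genes summed to 615.8 to 1360 CPM in WT and to 1039 to 2100 CPM in 16GsoT/T, groups that overlapped. With the index type as a covariate, which sets N10 alone against the 16GsoT/T libraries, the log2 fold changes were 0.83 for *Dbp*, 0.08 for *Npas2* and -0.39 for *Arntl*, given as values with no test. Choroid plexus markers differed in the same comparison, with sums of 79.7 to 93.0 CPM in WT and from 347.9 to 1746 CPM in 16GsoT/T, 3 of 4 genes passing, and their part in the clock gene values was not tested.

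The genotype effects were next compared between ages and regions. In CB, 6 of 10 clock genes had a genotype effect that differed between P35 and P14, where 18.6% of all genes tested did. *Npas2* had the largest difference (1.25 on the log2 scale, SE 0.31, edgeR adjusted p = 0.0104), since it had -0.52 at P14 and 0.73 at P35. It passed at neither age, and its counts in P35 CB were low, with 17 to 23 reads per library in WT and 19 to 43 in 16GsoT/T. *Per1* (0.77, edgeR adjusted p = 0.00706), *Arntl* (0.33, edgeR adjusted p = 0.0458) and *Cry2* (0.33, edgeR adjusted p = 0.0269) had more positive effects at P35, and *Per3* (-0.72, edgeR adjusted p = 0.00249) and *Clock* (-0.36, edgeR adjusted p = 0.0079) more negative ones. The call of *Arntl* was lost in 9 of 12 fits without one library, those without any one P35 library or any one WT library of P14, and that of *Cry2* in 6 of 12, those without C19, M27, WT 2, WT 3 or the 16GsoT/T libraries 5 and 6 of P14. *Nr1d1* (0.47, edgeR adjusted p = 0.0579) passed without C19, WT 1 or the 16GsoT/T library 4 of P14, and in DESeq2 (adjusted p = 0.0315). In HC the genotype effect of no clock gene differed between the ages (0 of 10 in edgeR and in DESeq2, 3 with an unadjusted p under 0.05), against 0.00666% of all genes tested.

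Between HC and CB, no clock gene had a genotype effect that passed the test of the difference at P14 (0 of 10 in edgeR and in DESeq2, 2 with an unadjusted p under 0.05) or at P35 (0 of 10 in edgeR and in DESeq2, 2 with an unadjusted p under 0.05). Over all genes tested, 0.0% did at P14 and 9.61% at P35. At P35 the differences were -0.52 for *Per1* (SE 0.25, edgeR adjusted p = 0.191) and 0.46 for *Dbp* (SE 0.21, edgeR adjusted p = 0.164). Without C19 the difference of *Dbp* was 0.63 and passed (edgeR adjusted p = 0.0467). The changes of clock genes in P35 CB are therefore not shown to differ from those in P35 HC.

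Ratios of 2 genes within a library do not depend on scaling between libraries. The count ratio of *Dbp* to *Arntl* was 3.20, 3.65 and 3.86 in the WT libraries of P35 CB and 2.45, 2.65 and 3.64 in the 16GsoT/T libraries, so the groups overlapped. *Nr1d1* to *Arntl* overlapped as well, with 4.83 to 5.44 in WT and 4.84 to 6.04 in 16GsoT/T. *Per3* to *Arntl* was 1.71 to 1.74 in WT and 0.85 to 1.04 in 16GsoT/T, and *Per1* to *Per3*, from the same side of the cycle, was 0.97 to 1.41 and 2.32 to 3.47. The groups of these 3 genes were already apart, in opposite directions within each pair, so that the gap in both ratios follows from their levels.

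Within groups, the ratio of *Dbp* to *Arntl* spread most widely in WT P35 HC of the 8 groups. It was 1.17 in N10, 2.08 in W481 and 3.32 in W483. The level of *Arntl* was 40.8 CPM in N10, 30.1 in W481 and 22.2 in W483, and *Npas2* followed with 27.2, 18.4 and 9.57 CPM. *Dbp* ran the other way with 47.8, 62.5 and 73.8 CPM, and so did *Per3* with 47.6, 62.8 and 77.4 CPM. *Nr1d1*, in contrast, was at 219.7, 203.0 and 224.4 CPM, *Per2* at 45.2, 41.3 and 50.1 CPM, and *Per1* was highest in N10 with 121.5 CPM against 69.5 and 80.3 CPM. *Cry1* was graded as *Arntl* was, with 16.46, 12.24 and 10.98 CPM. *Clock* was lowest in N10 (86.2 CPM against 95.0 and 94.3), and *Cry2* was at 149.7, 138.6 and 144.2 CPM. N10 thus had more of *Arntl*, *Npas2* and *Cry1* and less of *Dbp* and *Per3* than W483, an order of opposed phases for *Arntl* and *Npas2* against *Dbp* and *Per3* that *Per1*, *Per2* and *Nr1d1* did not share. The sum of 4 thalamic markers was graded in the same order as *Arntl*, with 193.1, 69.7 and 52.7 CPM. N10 also differed in its index type, in its sum of immediate early genes (1360 CPM against 615.8 and 825.8) and in its sum of endothelial markers (59.1 CPM against 85.7 and 85.6). The part of these in the pattern was not tested.

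**Figure D4:**
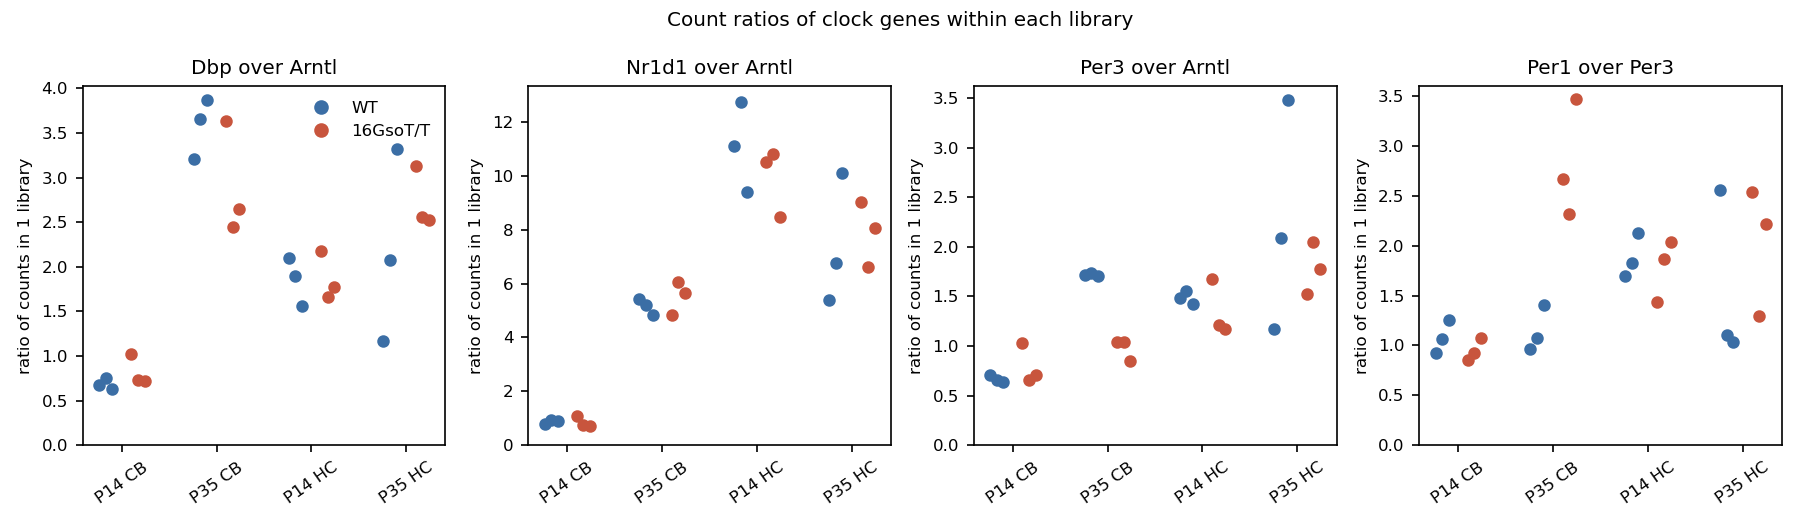
Count ratios of 2 clock genes within each library (y axis, from 0) by region and age (x axis), with WT and 16GsoT/T in different colours. *Dbp* over *Arntl* spans 1.17 to 3.32 among the 3 WT libraries of P35 HC, and *Per1* over *Per3* in P35 CB lies at 2.32 to 3.47 in 16GsoT/T and at 0.97 to 1.41 in WT.

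Among the 16GsoT/T libraries of P35 CB, C19 stood apart in several members. It had 14.7 CPM of *Per2* against 32.5 and 35.5, 3.29 CPM of *Npas2* against 5.82 and 6.41, 222.9 CPM of *Nr1d1* against 272.7 and 280.4, and 167.3 CPM of *Dbp* against 110.5 and 131.2. C19 also had the lowest sums of its group for glucocorticoid-responsive genes (880.7 CPM against 1281 and 1194), oligodendrocyte markers (5696 CPM against 8838 and 7181) and choroid plexus markers (121.6 CPM against 356.2 and 263.4). Its sums were the highest of the group for astrocyte markers (2635 CPM against 2181 and 2375) and cerebellar markers (4481 CPM against 4105 and 4118). The part of these lists in the clock gene values of C19 was not tested. In WT P35 CB, M29 had 45.0 CPM of *Per2*, against 22.7 and 23.6 in M28 and M27. In P14 CB the 16GsoT/T library 4 had 59.4 CPM of *Dbp*, 59.5 of *Per3*, 45.0 of *Per2* and 63.7 of *Nr1d1*, each the highest of the 6 libraries, and 57.9 CPM of *Arntl*, the lowest of the 6. *Per1* and *Npas2* did not share this order, since library 4 had 50.5 CPM of *Per1*, against 54.2 in the WT library 3 and 50.2 in library 6, and its *Npas2* (4.41 CPM) was between those of libraries 5 and 6.

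Most members had a spread within groups near or under the median of all genes, which were not matched to them by level. Pooled over the 8 groups, the SD of log2 CPM was 0.38 for *Npas2* and 0.36 for *Per2*, against a median of 0.19 over 15955 genes, which puts them at the 79.1 and 77.1 percentile of all genes. *Arntl* (0.19), *Dbp* (0.20) and *Per3* (0.21) were near the median, and *Cry2* (0.10) and *Clock* (0.12) were well under it. By group, the median SD of the 10 genes ranged from 0.10 in 16GsoT/T P14 HC to 0.31 in WT P35 HC, where the median of all genes was 0.12 and 0.21.

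To test whether opposed members moved apart within groups, each library's log2 CPM was taken as a deviation from its group mean, and 21 pairs of 7 genes were correlated over the 24 libraries. None of the 21 passed after adjustment (a within-group permutation test, 3 pairs with an unadjusted p under 0.05). *Arntl* and *Npas2* had the closest positive relation (Pearson's r = 0.726, permutation p = 0.0253, adjusted p = 0.328; Spearman's rho = 0.51, permutation p = 0.0444, adjusted p = 0.557). *Npas2* and *Dbp* had the strongest negative one (r = -0.669, permutation p = 0.04, adjusted p = 0.328; rho = -0.522, permutation p = 0.053, adjusted p = 0.557), with deviations of opposite sign in 14 of 24 libraries. *Per3* and *Dbp* had a positive relation (r = 0.518, permutation p = 0.0469, adjusted p = 0.328; rho = 0.449, permutation p = 0.0858, adjusted p = 0.601). Without N10 and W483, the 2 libraries farthest from the median of the first gene, r was 0.407 for *Arntl* and *Npas2* and -0.478 for *Npas2* and *Dbp*, and without N10 and B10 it was 0.512 for *Per3* and *Dbp*.

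Of the 10 pairs with opposed phases, 6 had a negative r (median -0.12), and of the 11 pairs from the same side, 6 had a positive one (median 0.02). This split makes no allowance for different peak hours within a side. *Arntl* and *Dbp* had r = -0.473 (permutation p = 0.171, adjusted p = 0.693) and rho = -0.252 (permutation p = 0.361, adjusted p = 0.759) over the 24 libraries, and r = -0.05 without N10 and W483, so this relation rests on those libraries. *Arntl* and *Nr1d1* had r = -0.115 (permutation p = 0.5, adjusted p = 0.712) and rho = -0.09 (permutation p = 0.676, adjusted p = 0.835). *Per1* had a positive r with *Arntl* (r = 0.484, permutation p = 0.198, adjusted p = 0.693; rho = 0.295, permutation p = 0.279, adjusted p = 0.759). Within the other 18 libraries, those of P35 HC left out, 0 of 21 pairs had an unadjusted p under 0.05, 5 of 10 opposed pairs were negative and 7 of 11 pairs of the same side were positive.

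**Figure D5:**
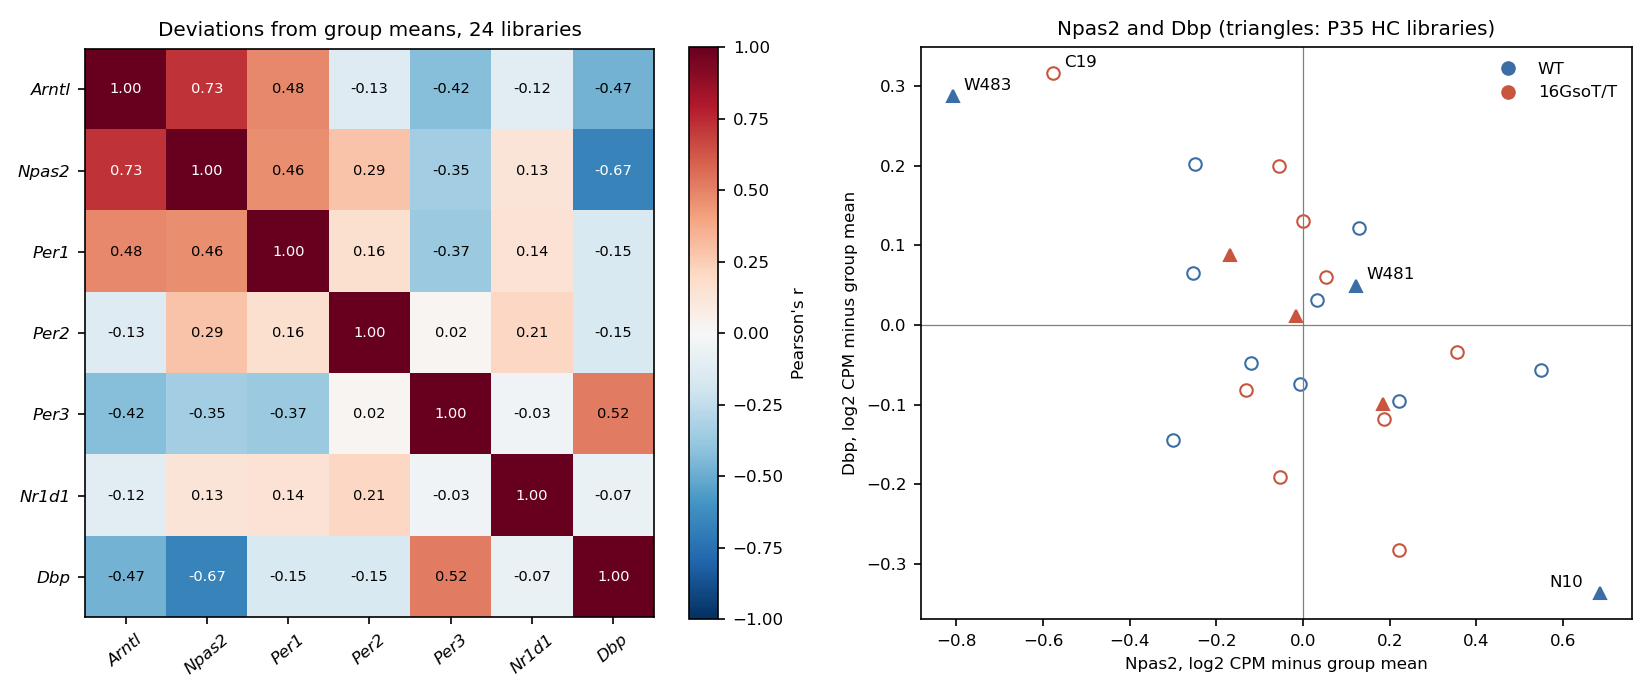
Left, Pearson's r of 7 clock genes over 24 libraries, from deviations of log2 CPM from the group mean (colour scale from -1 to 1). Right, deviation of *Dbp* (y axis) against that of *Npas2* (x axis), 1 point per library, with triangles for P35 HC, where N10 and W483 lie at the 2 ends of the *Npas2* axis (r = -0.669 over all libraries).

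Genes whose deviations were most like those of *Arntl* and *Dbp* were looked up among 10471 genes with a mean of at least 10 CPM, as a description. For *Arntl* they were *Cntn6* (r = 0.822), *Grk5* (0.818), *AI414108* (0.806), *Amotl1* (0.805) and *Ranbp10* (0.801), all over 24 libraries, and *Npas2* came 33rd from the top. For *Dbp* they were *2010300C02Rik* (r = 0.779), *Slu7* (0.759), *Wipf3* (0.758), *Btbd3* (0.745) and *Vim* (0.737), while *Nr1d2* (0.555) and *Per3* (0.518) were the clock genes highest in this order, at ranks 166 and 271. *Npas2* stood at rank 10422 of 10471 for *Dbp*, near the opposite end, and *Dbp* at rank 10083 for *Arntl*. The libraries share their group means and depth, and these values carry no test.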

How the data were processed

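RNA-seq counts of CB and HC from 16GsoT/T and WT mice were used. The authors mapped reads with TopHat2 2.0.8 to NCBIM37 and counted reads per gene with HTSeq 0.6.1, per the submitters' notes, and deposited raw counts in 2 tables of 12 libraries. Reads counted on no gene (31.9 to 62.4% per library) stayed out of library sizes. Groups were taken from the sample labels. Each region and age was fitted with edgeR 4.0.16 in R 4.3.3 (TMM scaling, filterByExpr with a minimum count of 10, quasi-likelihood test, Benjamini-Hochberg adjustment over all genes tested), and effects between ages or regions over 12 libraries as interactions. Genes were called at an adjusted p of at most 0.05, without the further fold limit of 1.5 that was tried as an alternative. The tests were tried on simulated counts. Displayed CPM used TMM factors of all 24 libraries, and ratios of mean CPM differed from fitted log2 fold changes by at most 0.036. Log2 CPM had a prior count of 2.

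Pair correlations used deviations from group means and 100000 permutations of libraries within groups, two-sided, adjusted over 21 pairs. The other alternatives were DESeq2 1.42.0, DESeq2 size factors in edgeR, an unfiltered table (1 or more counts in total), a minimum of 10 counts per library, one fit per age, each library left out, and the index type as a covariate. All 10 clock genes were named. From other clock genes at most 4 called genes with the largest changes were named per comparison, at most 3 from the glucocorticoid and immediate early lists where they moved with a clock gene, and the 5 genes most like *Arntl* and *Dbp*. The members and lists were chosen with earlier results of these data known. The lowest counts were those of *Npas2* in P35 CB (from 17 reads). The replicates are separate mice. Positions come from GENCODE vM1 on NCBIM37, promoter windows from RefSeq on GRCm38.p6.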

Additional observations from a re-analysis of the deposited data

Results flagged for a closer look

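The genotype effect differed between P35 and P14 in CB for 6 clock genes, by a test of the interaction of genotype and age (edgeR quasi-likelihood test over 12 libraries, adjusted over all genes tested). The differences, as the effect at P35 less that at P14 on the log2 scale, were 1.25 for *Npas2* (SE 0.31), 0.77 for *Per1* (SE 0.18), 0.33 for *Arntl* (SE 0.11), 0.33 for *Cry2* (SE 0.096), -0.36 for *Clock* (SE 0.084) and -0.72 for *Per3* (SE 0.14). Of all genes tested, 18.6% passed the same test. *Npas2* and *Clock* had groups that stood apart at P14 and in the opposite direction to their values at P35, with log2 fold changes of -0.52 at P14 and 0.73 at P35 for *Npas2*, whose groups overlapped at P35, and of 0.07 and -0.28 for *Clock*. Neither passed at P14. *Npas2* did not pass at P35 either, where it had 17 to 23 reads per library in WT and 19 to 43 in 16GsoT/T. The ages were sequenced in different lanes, with 64.8 to 68.1% of reads on genes in P14 CB and 37.6 to 42.4% in P35 CB, so age and sequencing cannot be told apart.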

How the results depend on the processing

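Of 330 log2 fold changes recomputed under alternatives other than leaving out a library, 314 kept their direction and side of the threshold (for the index type, moved by less than the spread between replicates), and of 480 with one library left out 418 kept both. Both totals cover the genotype comparisons, the WT regions and genotype by age in CB, and not the other interactions. In P35 CB, 7 called clock genes became 1 with the 1.5 fold limit, 5 in one fit of 12 libraries (without *Arntl* and *Clock*), 6 in DESeq2 (without *Arntl*) and 8 without a filter (with *Npas2*). In P14 HC, 0 became 1 (*Clock*) in one fit of 12 libraries. Between regions at P35, 0 became 0 to 1 over fits leaving out one library, the 1 being *Dbp* without C19. *Dbp* in P35 CB turned from -0.01 to 0.0013 without a filter, and the cause was not tested. Over fits leaving out one library, uncalled values that changed sign ranged as follows. In P14 CB, *Arntl* ranged from -0.089 to 0.0082, *Per1* from -0.083 to 0.096 and *Cry2* from -0.095 to 0.016. In P35 CB, *Per2* ranged from -0.32 to 0.27 and *Dbp* from -0.17 to 0.12. In P14 HC, *Arntl* ranged from -0.080 to 0.13, *Npas2* from -0.44 to 0.051 and *Dbp* from -0.028 to 0.15. In P35 HC, *Arntl* ranged from -0.19 to 0.22, *Clock* from -0.24 to 0.039, *Per2* from -0.18 to 0.13, *Per3* from -0.37 to 0.0048 and *Cry2* from -0.0035 to 0.19. Between WT regions, *Per2* ranged from -0.12 to 0.020 and *Dbp* from -0.017 to 0.17 at P14, and *Per3* from -0.20 to 0.15 at P35. For genotype by region at P14, *Arntl* ranged from -0.038 to 0.16 and *Nr1d1* from -0.10 to 0.093. At P35 the same interaction ranged from -0.43 to 0.27 for *Npas2*, -0.34 to 0.28 for *Per2* and -0.31 to 0.00062 for *Cry1*. For genotype by age in HC, *Arntl* ranged from -0.23 to 0.20, *Per2* from -0.25 to 0.074 and *Per3* from -0.24 to 0.12. With the index type as a covariate, *Per1*, *Per3* and *Cry1* in P35 HC had -0.16, 0.22 and 0.01. The 21 pair correlations gave 0 passing pairs under each of the 3 alternatives. No paired analysis was possible because the labels number the animals of each group separately. With 3 mice per group the smallest exact permutation p of a single gene is 0.1, and the SE of the clock genes was 0.11 to 0.27 in P35 HC, the comparison of lowest depth, and 0.057 to 0.29 in P35 CB.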
